A study of Mus musculus with 6 samples.

Results

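Alternative activation markers are genes whose RNA or protein is high in macrophages exposed to IL-4 or IL-13. A set of 10 such genes, Mrc1, Chil3, Chil4, Retnla, Mgl2, Clec10a, Cdh1, Tgm2, Matk and Flt1, was read by gene symbol from a table of 41549 genes. All 10 were found in the table, and all 10 passed the filter on low counts, which kept 11933 genes. Messenger RNA was measured in 6 libraries of wild type mouse bone marrow-derived macrophages in the M2 state. Bone marrow came from C57Bl/6 N mice aged 10 to 12 weeks and was grown for 7 days with M-CSF, the cytokine that drives macrophage differentiation. The cells were then transfected with a locked nucleic acid antisense oligonucleotide and polarized with IL-4 and IL-13 at 10 ng/ml for 48 h. The Ctr group (n = 3) received a control oligonucleotide, and the αGlu group (n = 3) received an oligonucleotide against 5′tRF-Glu(CTC), a piece cut from the 5′ side of tRNA-Glu. Both groups shared the transfection reagent and the polarization, and no unpolarized or untransfected library was part of the comparison. The study treats its replicates as independent experiments, whereas the labels do not tie a library to an animal. The fragment itself was not measured in these libraries, so its blockade was not checked here.

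IL-4 and IL-13 bind receptors that share the chain encoded by Il4ra, and JAK kinases then activate the transcription factor STAT6. STAT6 enters the nucleus and, with factors such as C/EBPβ, PPARγ and IRF4, switches on a program of secreted proteins, lectin receptors, enzymes and adhesion molecules. The marker genes are often read as a single program, although they encode proteins of unrelated function: RELMα (Retnla) and the chitinase-like proteins Ym1 (Chil3) and Ym2 (Chil4) are secreted, Mrc1, Mgl2 and Clec10a encode sugar-binding receptors, Cdh1 encodes E-cadherin, and Tgm2 a crosslinking enzyme. Matk encodes a kinase that inhibits SRC family kinases, and Flt1 encodes VEGF receptor 1, to which macrophages can respond.

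The antisense and its target are shown because they define the treatment. Both are written 5′ to 3′ in DNA letters, and capitals in the target mark the 20 bases, positions 2 to 21, that pair with the antisense.
αGlu antisense: taaccactagaccaccaggg
5′tRF-Glu(CTC) target: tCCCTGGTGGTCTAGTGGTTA

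Total counts ranged from 17912831 to 30386653 per library, and 14539 to 15295 genes had reads. The αGlu libraries were not alike. Over the 11933 genes tested, log2 CPM (CPM being reads scaled to library size) correlated at 0.992 between αGlu 2 and αGlu 3, but at 0.929 between αGlu 1 and either of them. αGlu 1 correlated with the Ctr libraries at 0.966 to 0.982, beside 0.978 to 0.988 among Ctr libraries and 0.891 to 0.917 between the other αGlu libraries and Ctr. Each fitted fold change of the 10 markers is therefore given with and without αGlu 1. With it edgeR called 0 genes, although 2943 had an unadjusted p below 0.05 and DESeq2 called 1119, so that edgeR calls of other genes come from the fit without it, in which 8.05% of genes were called higher and 10.5% lower. The 6 macrophage markers summed to 6125 to 6388 CPM in Ctr and to 6070 to 7478 CPM in αGlu, led by Csf1r, the receptor for M-CSF, and the mean of each was above 1 CPM.

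The 10 markers did not move together. They were chosen with earlier results of these data known, so neither their split nor their shares called are independent evidence. In αGlu 2 and αGlu 3, Retnla was nearly absent and Mgl2, Matk and Flt1 were at a small fraction of their Ctr level, while Chil4, Cdh1, Mrc1 and Tgm2 lay above every Ctr library. Chil3 and Clec10a overlapped with Ctr. In αGlu 1, 4 of the 10 markers (Mrc1, Clec10a, Tgm2 and Flt1) lay inside the Ctr range. Genes with an adjusted p below 0.1 whose log2 fold change exceeded 1 in either direction were called. With all 6 libraries, the quasi-likelihood test of edgeR called 0 of 10 markers, against 0% of the 11933 genes. At an unadjusted p under 0.05 it had 3 of 10 (Chil4, Mgl2 and Tgm2), where 24.7% of all genes were below that value. DESeq2 called 2 of 10 (Chil4 and Mgl2), against 8.16% of all genes. The 3 αGlu values lay on 1 side of the 3 Ctr values for 4 of 10 markers, against 30.2% of all genes (1 higher against 14.2%, Chil4, and 3 lower against 15.9%), so that this count is near its background.

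Without αGlu 1 the same edgeR test called 8 of 10 markers, against 18.6% of 12340 genes. αGlu 1 was singled out by its likeness to Ctr in these same libraries, and leaving it out favours calls. Adjusted p-values of that fit, here and below, are therefore descriptive and cannot be taken at face value. The calls were split evenly, with 4 higher (Mrc1, Chil4, Cdh1 and Tgm2), where the background was 8.05%, and 4 lower (Retnla, Mgl2, Matk and Flt1), where it was 10.5%. The groups then did not overlap for 8 of 10 markers, against 65.9% of all genes, near the background again, since only 2 αGlu libraries remained. The plot of fitted fold changes shows that leaving out αGlu 1 moved the 4 lower genes far more than the higher ones. The fit averages reads and not their logs, so 1 αGlu library near Ctr limits a fitted fall far more than a rise. For Matk, 118 CPM in αGlu 1 beside 8.91 and 8.62 CPM gave an αGlu mean of 45.1 CPM. The difference in shift can thus arise from the averaging and is not read as a trait of the lower genes. The median log2 fold change of the 10 markers was 0.05 with all libraries and -0.10 without αGlu 1, close to the 0.02 and 0.01 of all genes tested, because high and low members offset each other.

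**Figure D1:**
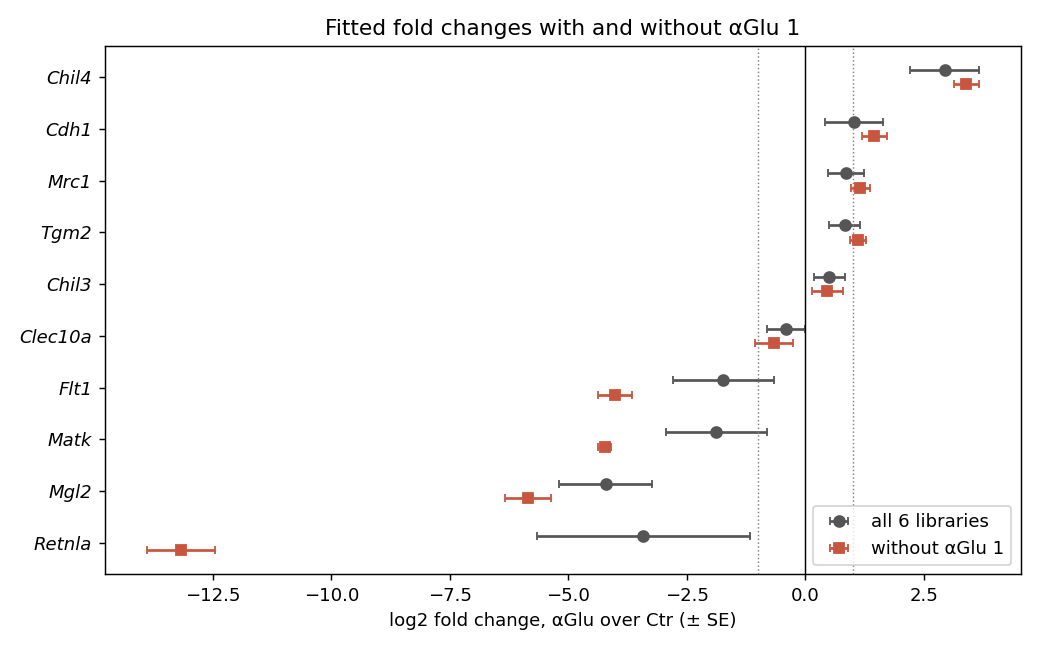
Log2 fold change of αGlu over Ctr (horizontal axis, with standard error) for the 10 markers, fitted by edgeR with all 6 libraries (grey circles) and without αGlu 1 (red squares); dotted lines mark the fold threshold. Retnla moved from -3.42 to -13.18 when αGlu 1 was left out, whereas Chil3 was at 0.50 and 0.47.

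Retnla (chr16:48842551-48844461, plus strand, GRCm38) encodes RELMα, a small secreted protein that is strongly induced by IL-4 and takes part in tissue repair and the response to worms. It had 540, 245 and 289 CPM in Ctr 1 to 3 and 101, 0.0315 and 0.0367 CPM in αGlu 1 to 3. αGlu 2 and αGlu 3 held 1 read each of 30386653 and 25501263, whereas the Ctr libraries held 11877, 5873 and 6231. Retnla was thus close to absent in 2 αGlu libraries, and the third, with 1766 reads, still lay below every Ctr library. The 2 reads of αGlu 2 and 3 together against the 23981 of Ctr gave a level 10488-fold lower, with an exact 95% Poisson interval of 2903 to 86604. αGlu 1 was 3.51-fold lower than Ctr (3.34 to 3.68 by the same method). These intervals cover counting error only. The fitted log2 fold change was -3.42 ± 2.24 (SE) with all libraries (edgeR, adjusted p = 0.354) and -13.18 ± 0.72 without αGlu 1 (edgeR, adjusted p = 6.56e-05). The ± 0.72 rests on 1 read in each of αGlu 2 and 3 and understates even the counting error. DESeq2 did not call it with all libraries (adjusted p = 0.364), and limma-voom gave -9.83 with a 95% interval of -15.1 to -4.54 (adjusted p = 0.127). The size of the fold change thus differed between methods.

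Chil3 encodes Ym1, a chitinase-like protein that binds sugars without cleaving chitin and is among the most abundant proteins secreted by M2 macrophages. Its levels were 2895, 1789 and 1479 CPM in Ctr and 3025, 3529 and 2160.0 CPM in αGlu. αGlu 3 fell within the Ctr range while αGlu 1 and αGlu 2 exceeded it. The log2 fold change was 0.50 ± 0.33 (edgeR, adjusted p = 0.353) with all libraries and 0.47 ± 0.33 without αGlu 1 (edgeR, adjusted p = 0.2995), and no alternative fit called it. The 95% interval from limma-voom ran from -0.25 to 1.31, so that a log2 fold change of 1 lay inside it.

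Chil4 encodes Ym2, a close relative of Ym1 from the neighbouring gene. It had 1.32, 1.38 and 0.974 CPM in Ctr and 2.06, 10.04 and 15.9 CPM in αGlu, from 29, 33 and 21 reads against 36, 319 and 434. Each αGlu library exceeded each Ctr library, αGlu 1 by little. The log2 fold change was 2.93 ± 0.72 (edgeR, adjusted p = 0.156). DESeq2 called it at the same fold change (adjusted p = 0.00114), and without αGlu 1 it rose by 3.39 ± 0.26 on the log2 scale, or 10.5-fold (edgeR, adjusted p = 0.000254).

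Chil3 (chr3:106147554-106167564, minus strand, GRCm38) and Chil4 (chr3:106201490-106219507, minus strand) are neighbours with related transcripts, each 1539 bases long, and reads can be shared between them. Of all windows of 30 bases in the Chil3 transcript, 32.3% also occurred in Chil4, against 18.5% of windows of 50 bases and 3.75% of windows of 100 bases. How the counting placed reads that matched both genes is not given in the sources used here. Chil4 took 0.0455%, 0.0771% and 0.0659% of the reads of both genes in Ctr and 0.0682%, 0.284% and 0.732% in αGlu. The exact binomial 95% intervals of αGlu 2 (0.253% to 0.317%) and αGlu 3 (0.665% to 0.803%) lay above those of all Ctr libraries, and that of αGlu 1 (0.0478% to 0.0944%) did not. These intervals too cover counting error only, not the spread between libraries. The log2 ratio of Chil4 to Chil3 was 1.97 higher in αGlu (two-sided exact permutation test, p = 0.2), where the smallest p that 3 against 3 libraries allow is 0.1. Levels of Chil4 are uncertain where reads fit both genes.

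**Figure D2:**
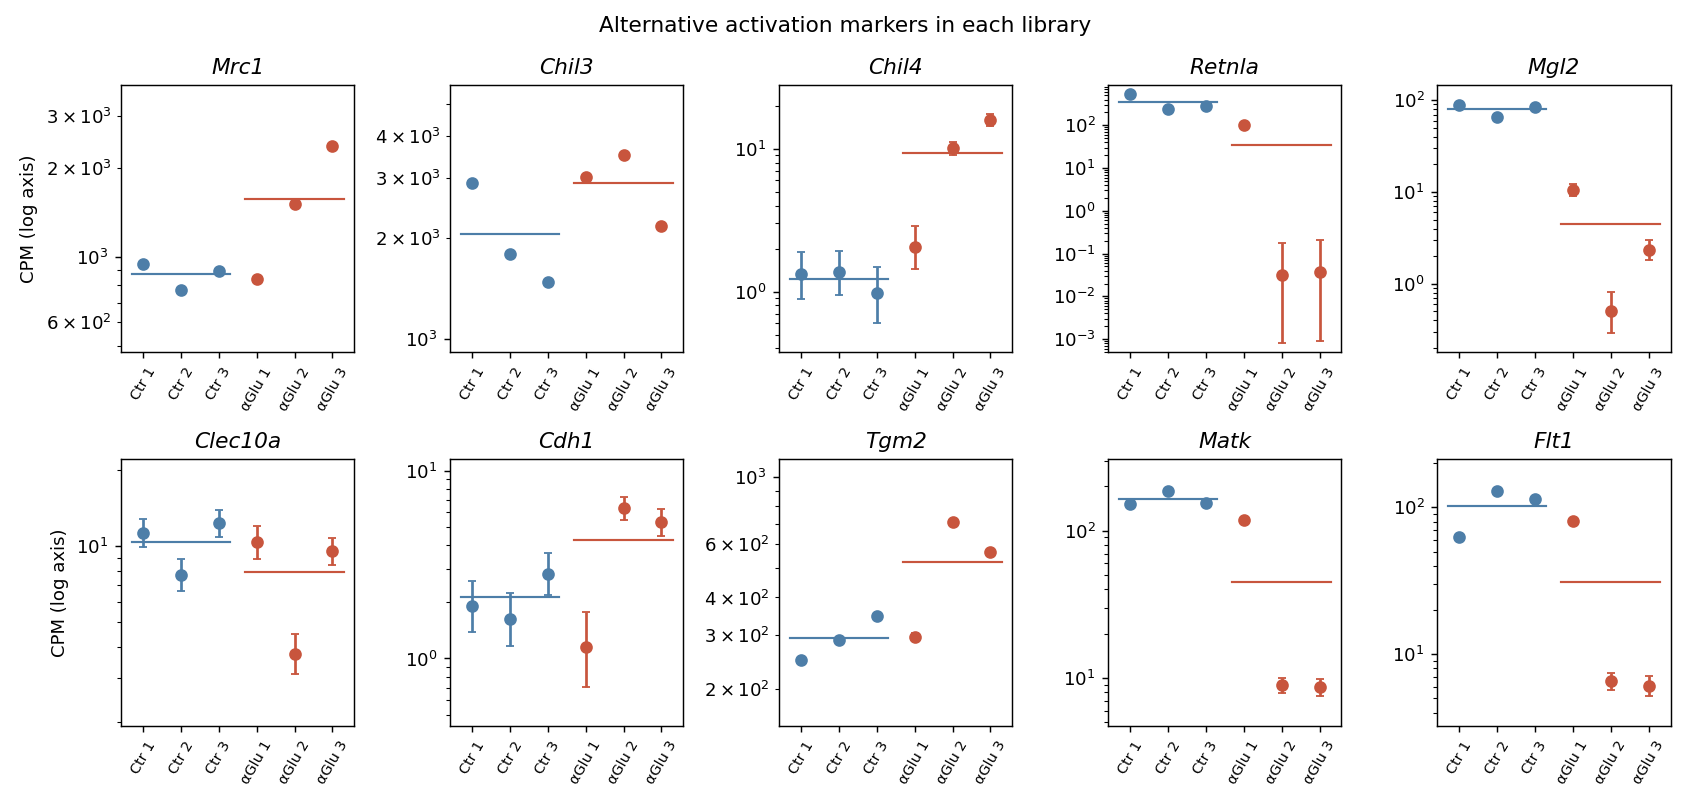
CPM on log axes (each panel with its own range) of the 10 markers in Ctr (blue) and αGlu (red) libraries; points are libraries with exact Poisson 95% intervals, mostly smaller than the point, and lines are group means. Retnla falls to 0.0315 and 0.0367 CPM in αGlu 2 and 3, Chil4 reaches 10.04 and 15.9 CPM there, and αGlu 1 lies inside the Ctr range for 4 of the 10 markers.

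The promoters of the 3 secreted markers are printed because Retnla and Chil4, both IL-4 response genes, moved in opposite directions without αGlu 1, while Chil3 was not called. The sequences are RefSeq (GRCm38.p6) stretches of 150 bases, from 250 to 101 bases before the annotated start, on the gene's strand. Capitals mark matches to the letters TTCNNNNGAA (a STAT6 site), TTCNNNGAA (a general STAT site) or TTGCNNAA (a C/EBP site), searched on both strands in the full 300-base promoter. No matches overlapped each other.
Retnla, chr16:48842359-48842508, plus strand: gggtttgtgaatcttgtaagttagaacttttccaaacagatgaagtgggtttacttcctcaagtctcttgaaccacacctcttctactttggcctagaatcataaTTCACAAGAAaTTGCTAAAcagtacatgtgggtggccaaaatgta
Chil3, chr3:106167665-106167814, minus strand: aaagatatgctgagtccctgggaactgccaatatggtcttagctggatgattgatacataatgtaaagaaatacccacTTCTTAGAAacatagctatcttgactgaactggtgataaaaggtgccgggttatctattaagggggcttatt
Chil4, chr3:106219580-106219729, minus strand: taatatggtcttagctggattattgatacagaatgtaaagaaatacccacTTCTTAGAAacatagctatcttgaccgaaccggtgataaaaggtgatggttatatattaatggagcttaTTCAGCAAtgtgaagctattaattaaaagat

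The Retnla promoter held TTCACAAGAA 145 bases and TTGCTAAA 134 bases before the start. The Chil3 and Chil4 promoters shared TTCTTAGAA, 172 and 200 bases before their starts, and Chil4 alone of the pair held a C/EBP match, TTCAGCAA on the reverse strand, 131 bases before the start. All these distances run from the RefSeq start, which for Retnla and Chil4 differs from the GENCODE gene position given above. Among 32851 mouse promoters of the same length, 6.95% held the STAT6 letters, 8.3% the general STAT letters and 10.8% the C/EBP letters. The promoter table matched 7 of the 10 markers with 8 promoters, and the entries for Clec10a, Cdh1 and Tgm2 are missing. Letters for AP-1 (TGANTCA) and NF-κB (GGGNNTTTCC), which 7.81% and 1.63% of all promoters held, occurred in none of the 8, and Mrc1, Mgl2, Matk and Flt1 held none of the 5 motifs. A match describes letters and is no measurement of binding.

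Mrc1 (chr2:14229392-14332057, plus strand, with the microRNA gene Mir511 inside it) encodes the mannose receptor CD206, an endocytic receptor for glycoproteins and the most used surface marker of M2 macrophages. It had 948, 771 and 898 CPM in Ctr and 840, 1513 and 2379 CPM in αGlu. αGlu 1 lay among the Ctr libraries, and αGlu 2 and αGlu 3 lay above them. With all libraries the log2 fold change was 0.85 ± 0.38 (edgeR, adjusted p = 0.221), and without αGlu 1 Mrc1 rose by 1.15 ± 0.20 on the log2 scale, or 2.22-fold (edgeR, adjusted p = 0.00557). Of its family, Ly75 (DEC-205), an uptake receptor, had 17.2, 19.1 and 14.99 CPM in Ctr and 27.3, 93.2 and 65.9 CPM in αGlu, and rose by 2.21 ± 0.17 on the log2 scale without αGlu 1 (edgeR, adjusted p = 0.000238), against 1.86 ± 0.43 with it (edgeR, adjusted p = 0.156). Pla2r1 and Mrc2 complete that list of 3, of which 2 genes were tested without αGlu 1 and only Ly75 was called. With all 6 libraries edgeR called 0 of 2, with 1 below an unadjusted p of 0.05, and DESeq2 called Ly75.

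Mgl2 encodes CD301b, a lectin that binds galactose-type sugars. It had 87.9, 66.3 and 83.9 CPM in Ctr and 10.6, 0.504 and 2.35 CPM in αGlu, from 1935, 1587 and 1809 reads against 185, 16 and 64. No αGlu library overlapped with Ctr, and αGlu 1, unlike for most markers, was far from the Ctr range. By summed reads αGlu 1 was 7.44-fold lower than Ctr (exact 95% Poisson interval 6.43 to 8.67), and αGlu 2 and 3 together were 58.3-fold lower (46.7 to 73.6). The log2 fold change was -4.22 ± 0.98 (edgeR, adjusted p = 0.156). DESeq2 called it (-4.15, adjusted p = 0.000122), and without αGlu 1 Mgl2 fell by 5.85 ± 0.49 on the log2 scale (edgeR, adjusted p = 0.000320). The study displays Mgl2 from these same libraries, so its place in the set is not independent evidence of a direction.

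Clec10a encodes CD301a, the close relative of Mgl2. Its levels were 11.3, 7.69 and 12.3 CPM in Ctr and 10.4, 3.75 and 9.54 CPM in αGlu. Only αGlu 2 lay outside the Ctr range. The log2 fold change was -0.41 ± 0.41 (edgeR, adjusted p = 0.532) and -0.66 ± 0.40 without αGlu 1 (edgeR, adjusted p = 0.236), and the 95% interval of limma-voom ran from -1.65 to 0.43.

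The 2 lectin genes lie next to each other, Mgl2 at chr11:70130329-70137550 and Clec10a at chr11:70156197-70170834, both on the plus strand (GRCm38). Mgl2 transcripts shared 23.0% of their 30-base windows and 15.3% of their 50-base windows with Clec10a, so that reads can be shared. Mgl2 took 88.6%, 89.6% and 87.2% of the reads of both genes in Ctr, but 50.5%, 11.9% and 19.8% in αGlu 1 to 3. Mgl2 held most of the reads of the pair in Ctr and few of them in αGlu 2 and 3, and the 2 genes were near equal in αGlu 1. The log2 ratio of Mgl2 to Clec10a was 2.96, 3.11 and 2.77 in Ctr and 0.03, -2.86 and -2.01 in αGlu. The difference of αGlu from Ctr was -4.56 (two-sided exact permutation test, p = 0.1, the smallest value that 3 against 3 libraries allow). The ratio compares genes within a library and does not depend on the scaling between libraries.

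**Figure D3:**
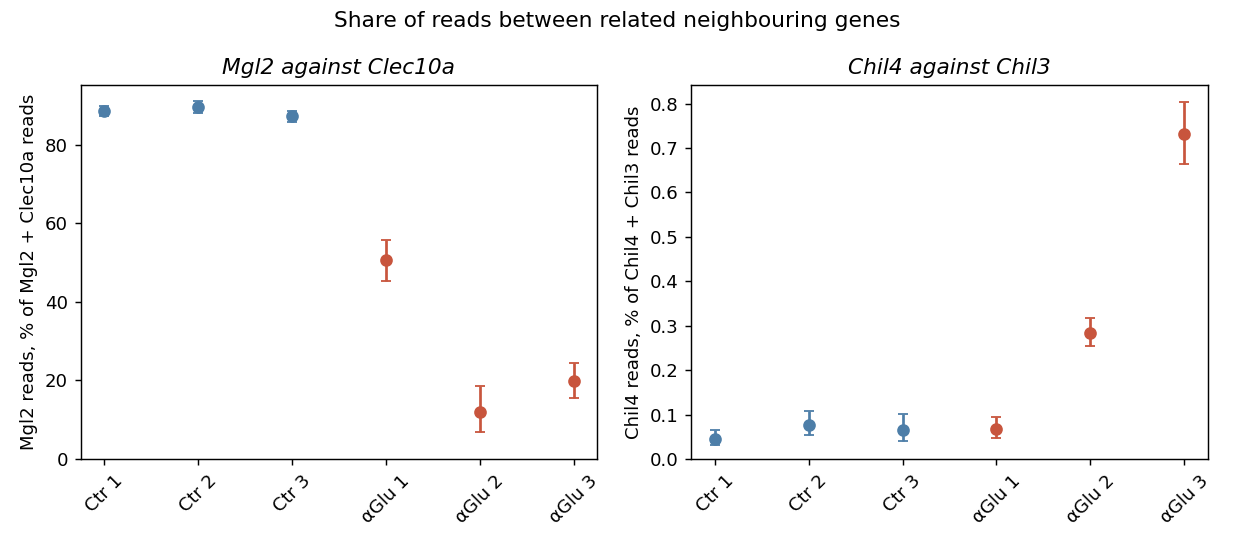
Share of Mgl2 in the reads of Mgl2 and Clec10a (left axis panel, percent) and of Chil4 in those of Chil4 and Chil3 (right panel, percent) per library, Ctr in blue and αGlu in red, with exact binomial 95% intervals. The Mgl2 share drops from 87.2% or more in Ctr to 50.5%, 11.9% and 19.8% in αGlu, and the Chil4 share reaches 0.284% and 0.732% in αGlu 2 and 3 only.

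Cdh1 (chr8:106603351-106670246, plus strand) encodes E-cadherin, a calcium-dependent adhesion molecule that IL-4 induces in macrophages and that takes part in their fusion. It had 1.91, 1.63 and 2.83 CPM in Ctr and 1.15, 6.30 and 5.32 CPM in αGlu, from at most 200 reads. αGlu 1 lay below all Ctr libraries and αGlu 2 and 3 lay above them, so the αGlu libraries differed in direction. Fitted to all libraries, the log2 fold change was 1.02 ± 0.61 (edgeR, adjusted p = 0.321), and without αGlu 1 Cdh1 rose by 1.45 ± 0.27 on the log2 scale, or 2.73-fold (edgeR, adjusted p = 0.00681). All 6 epithelial markers were at 0 reads in the Ctr libraries, and their sum was at most 0.063 CPM in any αGlu library.

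In a list of 10 cadherin partners, 7 genes were tested. Without αGlu 1, 1 rose and 1 fell, against 8.05% and 10.5% of all genes. Jup, or plakoglobin, which links cadherins to the cytoskeleton, fell by 1.73 ± 0.18 on the log2 scale (edgeR, adjusted p = 0.000679), and Zeb1, a repressor of E-cadherin transcription in epithelia, rose by 1.499 ± 0.143 (edgeR, adjusted p = 0.000541). Ctnnb1, or β-catenin, the most abundant gene of the list, was not called with αGlu 1 (log2 fold change -0.14 ± 0.11, edgeR, adjusted p = 0.455) or without it (-0.16 ± 0.10, 0.225). For macrophage fusion, 9 genes were listed, of which 5 fell and 2 rose without αGlu 1, beside the same 10.5% and 8.05%. Dcstamp and Ocstamp, the membrane proteins that cell fusion needs, stood at -7.63 ± 0.21 and -9.01 ± 0.32 on the log2 scale, and both fell (edgeR, adjusted p = 7.97e-06 and 1.84e-05). In αGlu 2 and 3 Dcstamp had 0.220 and 0.220 CPM, and Ocstamp 0.126 and 0.147 CPM. There 3 reads make 0.0944 and 0.110 CPM, so these folds rest on few reads and their ± values understate counting error. Cd9 fell by 2.16 and Trem2 and Atp6v0d2 each fell by 1.74 (log2), while Cd81, a relative of Cd9, rose by 2.25 and Mmp9, a collagen-cleaving protease, by 1.91. Mmp9 was low, with 0.772, 0.460 and 0.232 CPM in Ctr and 0.287, 0.976 and 2.75 CPM in αGlu. Its fold without αGlu 1 had an SE of 0.61 (edgeR, adjusted p = 0.0490). The median log2 fold change of the fusion list was -1.74 without αGlu 1, against 0.01 over all genes. With all 6 libraries, edgeR called 0 of the 7 and 0 of the 9 tested genes, 3 of either list were below an unadjusted p of 0.05 (24.7% of all genes), and DESeq2 called 2 and 4 (8.16%). In that fit Dcstamp stood at -4.00 ± 1.31 and Ocstamp at -5.49 ± 1.26 (edgeR, adjusted p = 0.166 and 0.156), and Jup and Zeb1 at -1.37 and 1.18. Cd9, Trem2 and Atp6v0d2 stood there at -1.42, -0.89 and -0.91, and Cd81 and Mmp9 at 1.75 and 1.47. Of these, only Cd9 did not overlap with Ctr. The median of the fusion list was -0.89 with all libraries, against 0.02 over all genes.

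Tgm2 (chr2:158116402-158146436, minus strand) encodes tissue transglutaminase, an enzyme that crosslinks proteins and is induced by IL-4 in mouse and human macrophages alike. It had 248, 289 and 347 CPM in Ctr and 297, 708 and 563 CPM in αGlu. αGlu 1 lay inside the Ctr range, and αGlu 2 and 3 lay above it. With αGlu 1 included, the log2 fold change was 0.83 ± 0.33 (edgeR, adjusted p = 0.197), and without αGlu 1 Tgm2 rose by 1.10 ± 0.17 on the log2 scale, or 2.15-fold (edgeR, adjusted p = 0.00332). Exons of Rprd1b and Gm20412 on the opposite strand touch those of Tgm2, and the strand setting of the counting is not given in the sources used here. Of 5 other transglutaminases, Tgm1 and F13a1 were tested and neither was called, with log2 fold changes of 0.69 ± 0.21 and -0.18 ± 0.73 (edgeR, adjusted p = 0.160 and 0.886), and 0.77 ± 0.23 and -1.04 ± 0.61 without αGlu 1 (edgeR, adjusted p = 0.0400 and 0.224). Tgm1, whose fold stayed below the threshold, was below an unadjusted p of 0.05, and DESeq2 called 0 of them.

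Matk (chr10:81252935-81263365, plus strand) encodes the CSK-homologous kinase, which phosphorylates SRC family kinases at their inhibitory tail. It had 153, 188 and 154 CPM in Ctr and 118, 8.91 and 8.62 CPM in αGlu. Every αGlu library was below every Ctr library, with αGlu 1 nearest to them. Over all 6 libraries the log2 fold change was -1.88 ± 1.07 (edgeR, adjusted p = 0.301), and without αGlu 1 Matk fell by 4.23 ± 0.14 on the log2 scale, to a level 18.8-fold lower (edgeR, adjusted p = 1.52e-05). Among 9 kinases of the CSK and SRC families, 6 were tested in both fits, of which 2 rose and 0 fell without αGlu 1, against 8.05% and 10.5% of all genes. Src rose by 1.42 ± 0.23 and Fgr by 2.69 ± 0.11 on the log2 scale (edgeR, adjusted p = 0.00433 and 2.61e-05), and with all libraries they stood at 1.05 and 2.17 (edgeR, adjusted p = 0.224 and 0.188). Lck, at under 2 CPM, passed the filter only without αGlu 1, through the libraries where it was high. Csk, the kinase that shares the role of Matk, had the highest mean CPM of them and was not called, with 162, 174 and 185 CPM in Ctr and 162, 144 and 157 CPM in αGlu. With all 6 libraries edgeR called 0 of 6, with 1 below an unadjusted p of 0.05 (24.7% of all genes), and DESeq2 called 1 (Fgr, against 8.16%).

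Flt1 (chr5:147561604-147726011, minus strand) encodes VEGF receptor 1, which binds VEGF-A, VEGF-B and placental growth factor. It had 62.5, 130 and 115 CPM in Ctr and 80.4, 6.55 and 6.09 CPM in αGlu. αGlu 1 lay inside the Ctr range, and αGlu 2 and 3 were far below it. The log2 fold change was -1.73 ± 1.07 (edgeR, adjusted p = 0.331), and without αGlu 1 Flt1 fell by 4.02 ± 0.35 on the log2 scale, to a level 16.2-fold lower (edgeR, adjusted p = 0.000401). Endothelial cells also express Flt1. The 6 endothelial markers summed to 84.6 to 172 CPM in Ctr and 47.1 to 96.2 CPM in αGlu, nearly all of it Vwf and Pecam1. These 2 moved in opposite directions without αGlu 1. Vwf, with 168, 102 and 81.1 CPM in Ctr and 93.7, 30.3 and 23.8 CPM in αGlu, fell by 2.12 ± 0.33 on the log2 scale as Flt1 did (edgeR, adjusted p = 0.00355), and Pecam1 rose by 2.64 ± 0.21 (edgeR, adjusted p = 0.000269). With all libraries neither was called (-1.25 and 2.14). Cldn5 was at 0 reads, and Emcn, Tek and Cdh5 had 2, 4 and 37 reads over all 6 libraries. The part of endothelial cells in the Flt1 values was not tested.

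Of 7 partners of Flt1, all were tested, and without αGlu 1 2 rose and 1 fell, against 8.05% and 10.5% of all genes. Both that rose are ligands. Pgf, the placental growth factor, had 0.182, 0.543 and 0.278 CPM in Ctr and 0.344, 8.06 and 11.9 CPM in αGlu, and rose by 4.85 ± 0.38 on the log2 scale without αGlu 1 (edgeR, adjusted p = 0.000258). Vegfa had 40.2, 33.4 and 44.2 CPM in Ctr and 62.2, 127 and 87.4 CPM in αGlu, without overlap, and rose by 1.45 ± 0.18 (edgeR, adjusted p = 0.00161). The co-receptor Nrp1 fell by 2.00 ± 0.18 (edgeR, adjusted p = 0.000434). Nrp2, the most abundant of the list, was not called (log2 fold change 0.69 ± 0.12, below the fold threshold). With all 6 libraries edgeR called 0 of 7, with 2 below an unadjusted p of 0.05 (24.7% of all genes), and DESeq2 called 2, Vegfa and Pgf (8.16%). Pgf stood at 4.32 ± 1.22, Vegfa at 1.23 ± 0.27 and Nrp1 at -1.01 ± 0.58 in that edgeR fit (adjusted p = 0.159, 0.155 and 0.305).

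The 10 markers also differed widely in abundance. On the TPM scale, which corrects for transcript length, the mean level in Ctr was 3812 ± 1455 (SD, n = 3) for Chil3, the 27th most abundant of all genes, and 1812 ± 839 for Retnla. Mrc1 followed with 413 ± 49.2 TPM, Tgm2 with 193 ± 30.1, Mgl2 with 114 ± 18.03 and Matk with 108 ± 11.9. Flt1 had 22.8 ± 7.54 TPM, Clec10a 10.8 ± 2.58, Cdh1 1.40 ± 0.407 and Chil4 1.31 ± 0.240. In this order the Ctr ranges overlapped only between Chil3 and Retnla, between Mgl2 and Matk and between Cdh1 and Chil4. Retnla, at rank 2 in Ctr, was at rank 10 in αGlu 2 and αGlu 3, and Chil4 went from rank 10 to rank 4. Chil3 kept rank 1 in every αGlu library. In bulk RNA, fewer cells that express a gene and less RNA per cell cannot be told apart.

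αGlu 1 did not take the same place between Ctr and the other αGlu libraries for every marker. On a scale of log2 CPM where the Ctr mean is 0% and the mean of αGlu 2 and 3 is 100%, it stood at 47.7% for Mgl2, 22.2% for Chil4, 15.1% for Retnla, 11.3% for Matk, 7.12% for Flt1 and 2.29% for Tgm2. Mrc1 (-4.35%), Clec10a (-3.02%) and Cdh1 (-55.6%) lay on the far side of the Ctr mean, and Chil3 (127%) lay beyond the mean of αGlu 2 and 3. The median over the 2020 genes called without αGlu 1 that had also been tested with all libraries was 15.4%, with 19.4% for the 1212 that were lower and 8.36% for the 808 that were higher. Mgl2 thus lay well above the median of lower genes. No test was made of these positions, and the cause of the difference between the αGlu libraries was not tested.

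The other genes of IL-4 and IL-13 signalling and alternative activation were split as well. Of a list of 32, edgeR tested 28 with all 6 libraries and called 0, with 15 below an unadjusted p of 0.05, against 24.7% of all genes. Of these 28, DESeq2 called 9 higher and 4 lower, against 4.23% and 3.93% of all genes. Without αGlu 1, 11 of the 28 rose and 8 fell, against 8.05% and 10.5%, and their median log2 fold change was 0.06. Several of these genes, among them Irf4, Ccl22 and Fn1, are displayed by the study from these libraries, so the list is not independent of it.

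Near the receptor, Il4ra had 62.7, 61.1 and 66.3 CPM in Ctr and 78.2, 510 and 643 CPM in αGlu, and it rose by 3.18 ± 0.12 on the log2 scale without αGlu 1 (edgeR, adjusted p = 2.61e-05), against 2.70 ± 0.73 with it (edgeR, adjusted p = 0.157). The shared chain Il2rg (1.55) and Jak3 (1.41), as well as Socs1 (2.20) and Cish (1.68), feedback inhibitors that STAT proteins induce, also rose in log2 units without αGlu 1. Stat6 itself had 257, 278 and 256 CPM in Ctr and 279, 264 and 257 CPM in αGlu, with overlap, and a log2 fold change of 0.02 ± 0.09 (edgeR, adjusted p = 0.922), or -0.02 ± 0.08 without αGlu 1 (edgeR, adjusted p = 0.859). Stat6 RNA says nothing of its phosphorylation.

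Among transcription factors, Irf4 had 30.3, 26.9 and 25.3 CPM in Ctr and 8.95, 2.05 and 1.54 CPM in αGlu, and fell by 3.93 ± 0.16 on the log2 scale without αGlu 1 (edgeR, adjusted p = 2.91e-05), against -2.76 ± 0.68 with it (adjusted p = 0.156). Pparg, a lipid-sensing receptor, fell by 4.03 ± 0.10 (edgeR, adjusted p = 7.38e-06), against -1.58 ± 1.08 (adjusted p = 0.373). Myc fell by 3.71, Egr2 by 2.11 and Klf4 by 1.13 in the same fit, while Cebpb rose by 1.49 (log2). With all 6 libraries these stood at -2.28, -1.18, -0.87 and 1.13 (edgeR, adjusted p = 0.170, 0.238, 0.156 and 0.194), and Cebpb overlapped with Ctr. Factors named as partners of STAT6 thus stood on either side.

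The effector genes showed the widest range. Arg1, the arginine-cleaving enzyme, had 24.3, 45.2 and 41.5 CPM in Ctr and 23.5, 1886 and 1792 CPM in αGlu, and rose by 5.63 ± 0.28 on the log2 scale without αGlu 1 (edgeR, adjusted p = 4.99e-05), against 5.06 ± 1.46 with it (edgeR, adjusted p = 0.159). The chemokine Ccl24 (4.67), the IL-1 receptor antagonist Il1rn (3.91), the arginine transporter Slc7a2 (2.03) and the scavenger receptor Msr1 (1.26) also rose in log2 units in that fit. Ch25h, the cholesterol 25-hydroxylase, had 0.182, 0.167 and 0.0464 CPM in Ctr and 0.401, 20.7 and 21.2 CPM in αGlu, and passed the low-count filter only without αGlu 1, through the 2 libraries where it was high. Fibronectin (Fn1, -3.89), Ccl22 (-3.10) and the fatty acid receptor Cd36 (-2.77) fell. Ccl17, with 45 reads over all libraries, passed the filter only without αGlu 1, through Ctr. Ear11 was not analysed here.

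**Figure D4:**
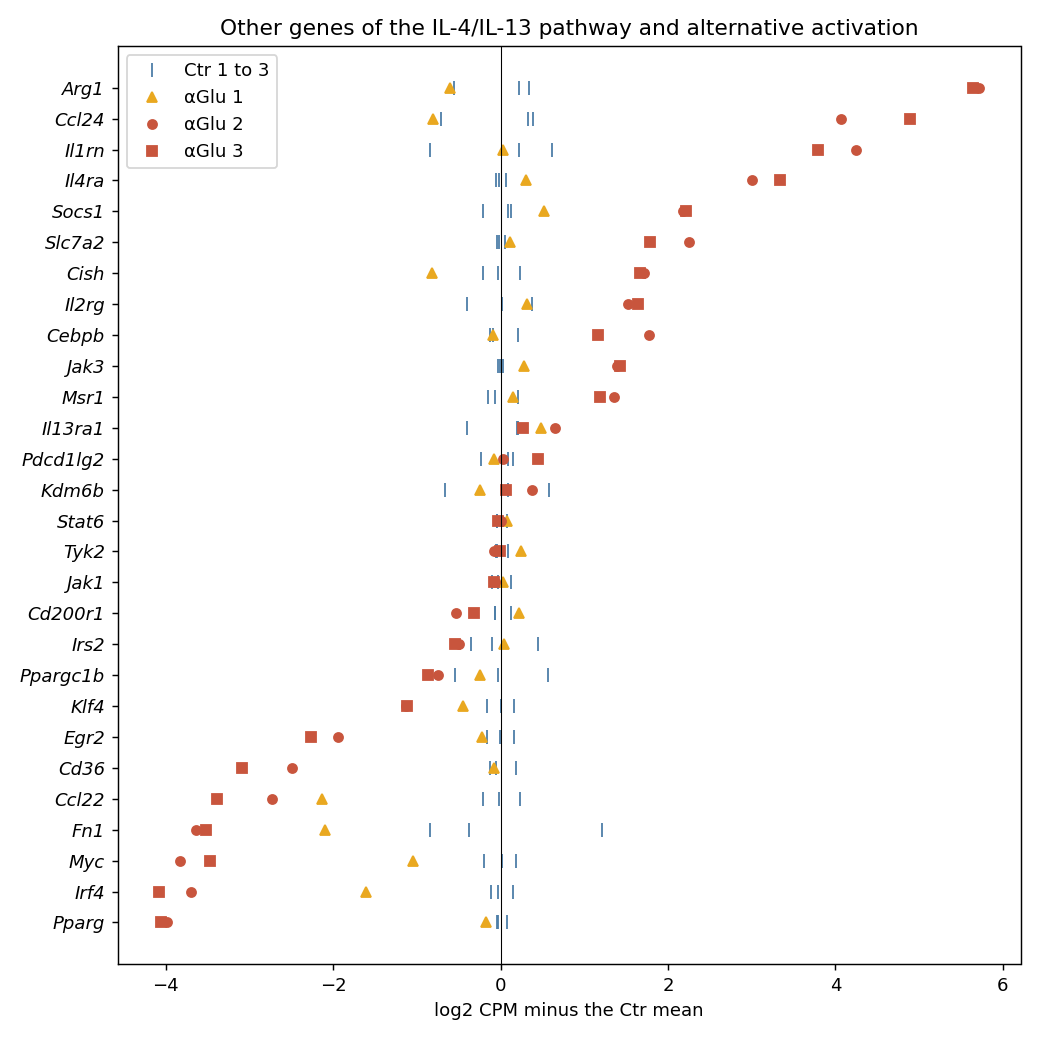
Log2 CPM minus the Ctr mean (horizontal axis) for the 28 tested genes of the IL-4 and IL-13 list, with Ctr libraries as blue ticks, αGlu 1 as yellow triangles and αGlu 2 and 3 as red circles and squares. αGlu 1 lies near Ctr for most genes but is shifted for Irf4, Ccl22, Fn1 and Myc, and Stat6 lies at 257 to 279 CPM in the αGlu libraries.

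Relatives of the secreted markers were mostly at or near 0 reads. Of 5 genes of the chitinase family, only Chil1, which encodes a chitinase-like protein found in inflamed tissue, passed any filter. It had 194 reads in αGlu 2 and 3 together, 0 in αGlu 1 and 1 in Ctr. It passed the low-count filter only without αGlu 1, through the libraries in which it was high, so that no test is given. None of the 3 RELM relatives of Retnla and neither of the 2 relatives of the galactose lectins passed the filter on low counts, and Retnlg, which shares 5.79% of the 30-base windows of Retnla, had 0 reads.

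Genes with the nearest profile over the 6 libraries were searched among the 8409 whose mean log2 CPM reached 3, by the root mean square difference of centred log2 CPM. For Matk the nearest was Pparg, at 0.137, followed by Anxa1, at 0.268. Pparg had 201, 217 and 201 CPM in Ctr and 183, 13.001 and 12.4 CPM in αGlu, the same pattern of a small step in αGlu 1 and a large one in the other two. Anxa1 was also nearest to Flt1, at 0.257, followed by Prr5l, at 0.275. Chil4 lay nearest to Il4ra, at 0.254, and to Batf, at 0.275. For Retnla, whose own spread was wide, Mamdc2 and Ear2 differed by 2.06 and 2.25, which was 0.392 and 0.428 of its SD. The same share was 0.404 and 0.435 for Clec10a and 0.0705 for Matk and Pparg. Mgl2 lay nearest to Fcrls (0.707) and Itgax (0.884). For Mrc1 these were Stard7 (0.115) and Ap1b1 (0.119), for Chil3 Celsr3 (0.183) and Zfhx2 (0.248), and for Clec10a Gas6 (0.229) and Tbc1d16 (0.247). Cdh1 lay nearest to Clec4n (0.135) and Aldoc (0.190), and Tgm2 to Cpne2 (0.0961) and Cyth1 (0.0992). Likeness over 6 libraries that share a group difference is a description.

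**Figure D5:**
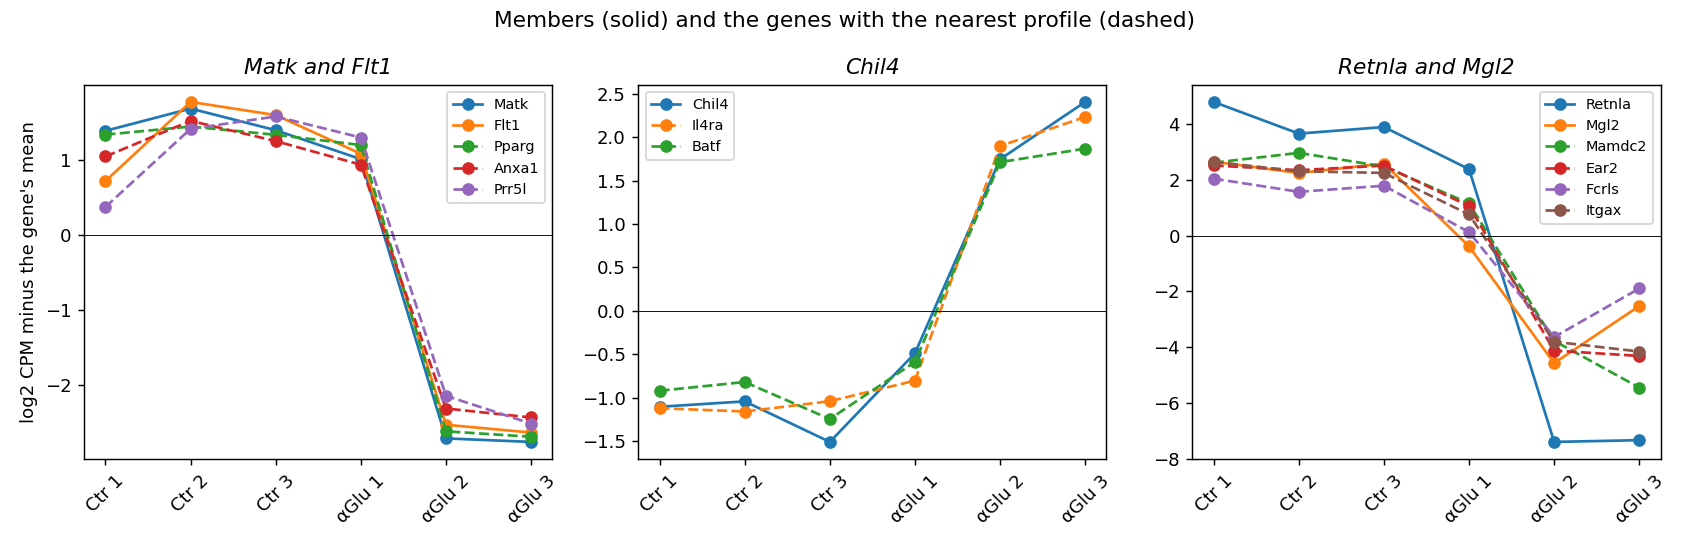
Log2 CPM minus the gene's own mean (vertical axis) in the 6 libraries for Matk and Flt1, for Chil4 and for Retnla and Mgl2 (solid), with the genes of nearest profile (dashed); lines only join the points of a gene. Matk and Pparg nearly coincide, with a root mean square difference of 0.137, and Retnla drops further than any of its neighbours.

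Markers of other cell types were low, with exceptions. The 7 dendritic cell markers, of interest because dendritic cells also express Mgl2, summed to 3.76 to 4.997 CPM in Ctr and 1.58 to 2.75 CPM in αGlu, with Xcr1 at 0 reads and Flt3 and Cd209a at 1 and 7 reads over all 6 libraries. Kit, the top gene of the sum, had 3.09, 2.01 and 1.62 CPM in Ctr and 1.15, 0.756 and 0.403 CPM in αGlu. Of 4 tested, DESeq2 called Kit alone (-1.58, adjusted p = 0.0302), against 8.16% of all genes. Without αGlu 1, 0 rose and 2 fell (Kit and Clec9a), against 8.05% and 10.5%. With all libraries Zbtb46 stood at -1.10 without overlap, and Ccr7 at 0.56 with overlap. The 9 neutrophil markers summed to 107 to 160 CPM in Ctr and 186 to 609 CPM in αGlu, nearly all from Csf3r, and Ly6g was at 0 reads. The list did not move together. Of 3 tested in both fits, Csf3r and S100a8 rose and Mpo fell without αGlu 1, against 8.05% and 10.5% of all genes. S100a9 and Ngp, with 47 and 75 reads over all libraries, were lower in αGlu 2 and 3 than in Ctr. With all 6 libraries edgeR called 0 of the 3, and DESeq2 called Csf3r. Mast cell and basophil markers summed to 1.80 to 10.3 CPM, fibroblast markers to 1.01 to 7.18 CPM and lymphocyte markers to at most 0.472 CPM in any library. The part of these cell types in the results was not tested.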

How the data were processed

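RNA of 6 libraries was measured by stranded mRNA sequencing. The authors used the QIAGEN RNA-seq Analysis Portal, with GRCm38 as the build in the submitters' processing notes, and the aligner and annotation are not given in the sources used here. The authors deposited counts (whole exon reads, not normalized), RPKM, TPM and CPM per gene and library. The deposited RPKM values served an alternative for the ratios, the deposited TPM values the order of levels, and the deposited CPM column was not used.

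Deposited counts were filtered with filterByExpr (minimum count 10, minimum total 15), scaled by TMM (factors 0.951 to 1.07) and fitted with edgeR 4.0.16 (quasi-likelihood, group as the only term, two-sided, Benjamini-Hochberg over all genes) in R 4.3.3. CPM was computed per TMM-adjusted library size, with a prior count of 2 in log2 CPM, and each standard error from the fold change and its F. Such a standard error can be smaller than counting error where reads are few. Alternatives were DESeq2 1.42.0, limma-voom (limma 3.58.1), other scalings, filters and thresholds, a replicate block and each library left out. Ratios had 0.5 added to each count. The scripts were tested on simulated data. Gene positions and transcripts came from GENCODE M21.

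The markers and lists were chosen with earlier results of these data known. Named were the 10 markers, every called gene of each partner list with its most abundant gene (for the IL-4 list the 3 highest and 3 lowest), and the 2 nearest profiles of each marker. Other genes were named after their values were seen. The smallest chi-square per gene between libraries was 19.8, so all 6 were counted separately. The p-values of edgeR, DESeq2 and limma-voom set a group difference against the spread between these libraries. Permutation p-values rank it among all arrangements of the group labels.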

Additional observations from a re-analysis of the deposited data

How the results depend on the processing

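Leaving out αGlu 1 changed most: the genes called by edgeR ranged from 0 to 2290 over the libraries left out, the markers called from 0 to 8, the partner genes called from 0 to 38 (4 of them, Lck, Chil1, Ch25h and Ccl17, tested only there) and the genes without overlap from 4062 to 8131, each highest without αGlu 1. DESeq2 called 1119 genes and 2 markers. The replicate block called 17 genes and 0 markers, against 0.142% of all genes, with Retnla at -8.29 and Mgl2 at -4.85 (log2). Same-numbered libraries deviated together at r = 0.08, 0.06 and 0.15, each above the -0.11 to 0.05 of differently numbered ones. All these values are low, and whether the numbers pair the libraries was not tested. By limma-voom 0 genes were called and 3101 had an unadjusted p below 0.05, and RLE factors, library size alone, other filters and other thresholds called 0. Of 130 alternative fold changes of the markers, 120 kept their direction and side of the threshold, 10 passed it in addition and 0 reversed. Without single libraries, the Chil4 to Chil3 ratio ranged from 1.17 to 2.87 and the Mgl2 to Clec10a ratio from -5.38 to -3.94 (log2). The cause of these changes was not tested. With 3 libraries a group, exact tests cannot go below p = 0.1, and the 1 read of Retnla or few reads of Chil4, Cdh1 and Mgl2 limit their folds.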
